A study of Homo sapiens with 6 samples.

Results

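Cholesterol and fatty acid synthesis genes were compared between 2 sorted fractions of MCF10AT1 cells. MCF10AT1 is a human breast epithelial line, made from MCF10A cells transformed with HRAS and passed through a mouse as a xenograft. Cells were stained for the surface proteins CD24 and CD44 and sorted, and a CD24low fraction (called CSC in the sample descriptions) was set against a CD24high fraction (called Bulk there); the labels give no CD44 level for either. Each fraction had 3 libraries of RNA depleted of ribosomal RNA (rRNA), and all cells were grown in medium with 5% horse serum, which carries lipoproteins, and 10 μg/ml insulin, besides EGF, cholera toxin and hydrocortisone. Nothing in the labels tells whether the replicates were separate cultures, so the spread behind each p-value is that between libraries and may be technical. The 31 genes were chosen by name from the 58381 gene rows of the table. All 31 were found and all passed the filter of a mean of at least 10 normalized counts, as did 16047 genes in all. They comprise 4 regulators, 7 enzymes from acetoacetyl-CoA to farnesyl diphosphate, 11 enzymes from squalene to cholesterol, 1 sterol carrier and 8 genes of fatty acid synthesis and desaturation. Other genes of these pathways are described from separate lists, and some are not analysed here.

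As background, SREBF1 and SREBF2 encode the sterol regulatory element-binding proteins (SREBPs), membrane-bound transcription factors of the endoplasmic reticulum. When sterols are low, SCAP escorts them to the Golgi, where proteases release the active part. When sterols are high, INSIG proteins hold SCAP back. SREBP-2 is known mainly for driving sterol synthesis, and the SREBP-1c form of SREBF1 for driving fatty acid synthesis downstream of insulin. The enzymes' promoters often combine sterol response elements with sites for the cofactors NF-Y and Sp1.

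The promoters of these genes were searched for motif letters, apart from the RNA data. RefSeq promoter windows of 300 bases on GRCh38.p14 were matched by symbol for 27 of the 31 genes, in 37 windows. ACAT2, FDFT1, SQLE and FASN were not matched. On either strand, the element letters TCACNCCAC stood in 1 of the 37 windows, that of SREBF2, and in 1.13% of all 35116 windows. The shorter letters CACNCCAC, which every such match also holds, stood in 7 windows (18.9%, against 5.87% of all windows), of ACACA, IDI1, INSIG1, SC5D, SCD and SREBF2. The NF-Y letters CCAAT stood in 25 windows (67.6%, against 34.6%), the Sp1 letters GGGCGG in 33 (89.2%, against 45.0%) and the E-box CACGTG in 5 (13.5%, against 7.26%). These are matches of letters and not mapped binding sites. Windows of the same gene can overlap, so that a site is counted more than once. The windows of all genes were not limited to expressed genes, so the higher shares need not be particular to these pathways. The windows below are shown for SREBF2 because it alone held the full element, and for INSIG1 as the feedback target. MSMO1 and STARD4 carry repeated NF-Y letters and were picked by their RNA values, being among the 3 lowest differences. SC5D, also among these 3, is not shown. Repeated NF-Y letters also stood in windows of MVK, FDPS and EBP, whose log2 differences, CD24low minus CD24high, were -0.011, -0.025 and 0.16. SREBF1 is shown because it held none of the capitalised letters. Neither did SCAP, PMVK, CYP51A1, ELOVL6 or FADS1, and which SREBF1 form the window serves was not determined. Bases are counted from the RefSeq start, bases inside the GENCODE 29 gene are left out, and capitals mark the element and NF-Y letters on either strand.
SREBF2 (chr22:41832899-41833078, plus strand, bases -206 to -27): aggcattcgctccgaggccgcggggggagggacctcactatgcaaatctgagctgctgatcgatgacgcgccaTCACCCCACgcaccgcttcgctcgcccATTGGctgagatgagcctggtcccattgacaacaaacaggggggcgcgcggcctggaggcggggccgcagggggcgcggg
MSMO1 (chr4:165327443-165327622, plus strand, bases -226 to -47): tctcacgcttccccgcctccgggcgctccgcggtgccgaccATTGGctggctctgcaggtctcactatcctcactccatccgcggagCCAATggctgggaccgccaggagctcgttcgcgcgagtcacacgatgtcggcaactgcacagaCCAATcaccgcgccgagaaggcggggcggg
STARD4 (chr5:111512591-111512770, minus strand, bases -235 to -56): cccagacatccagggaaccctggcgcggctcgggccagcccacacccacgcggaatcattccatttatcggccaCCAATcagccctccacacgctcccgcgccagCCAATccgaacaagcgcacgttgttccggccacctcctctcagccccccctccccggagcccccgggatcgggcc
INSIG1 (chr7:155297628-155297775, plus strand, bases -250 to -103): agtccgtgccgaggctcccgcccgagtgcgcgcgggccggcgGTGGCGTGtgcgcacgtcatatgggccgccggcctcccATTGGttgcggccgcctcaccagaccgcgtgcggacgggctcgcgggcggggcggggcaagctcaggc
SREBF1 (chr17:17837003-17837182, minus strand, bases -196 to -17): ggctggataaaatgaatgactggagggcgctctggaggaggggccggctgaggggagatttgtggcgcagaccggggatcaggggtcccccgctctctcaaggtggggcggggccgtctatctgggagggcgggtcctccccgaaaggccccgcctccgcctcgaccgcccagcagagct

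Between the sorted fractions the synthesis genes differed little, and none passed the test. With limma on log2 (normalized count + 1), 0 of the 31 genes passed an adjusted p of 0.05 over all genes, beside 0% of the 16047 genes tested. With DESeq2 on recovered reads, 0 of the 31 passed, against 2.51% of all tested genes (1.36% higher and 1.15% lower in CD24low). At an unadjusted p below 0.05 in limma there was 1 of 31, SCAP (3.23%, against 13.5% of all tested genes, 6.34% higher and 7.15% lower). The quasi-likelihood test of edgeR called 0 genes of the whole table, with 2263 at an unadjusted p below 0.05. In 3 of 31 genes (9.68%) the CD24low and CD24high libraries did not overlap, against 19.5% of all tested genes. Each of these 3, SCAP, EBP and FADS2, was higher in CD24low cells, the direction in which 10.2% of all genes did not overlap, and 0 of the 31 were lower without overlap, against 9.32%. The median log2 difference, CD24low minus CD24high, was -0.025 over the 31 genes and -0.0066 over all tested genes, with 12 positive and 19 negative values. All 31 differences lay within 0.5 on the log2 scale, as did 86.6% of all tested genes. All 31 of limma's 95% intervals lay within 1 on the log2 scale, so a change of 2-fold or more lay outside each gene's own interval. The interval that reached farthest, that of MSMO1, reached 1.88-fold. Because cells were sorted in bulk, fewer cells of a kind and less RNA per cell cannot be told apart.

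The libraries themselves set the limits of these values. CD24 RNA followed the sort, with 588, 329 and 1370 normalized counts in CD24low replicates 1, 2 and 3, against 4043, 2325 and 5687 in the CD24high libraries (log2 difference -2.55, SE 0.46, limma adjusted p = 0.084, DESeq2 adjusted p = 0.027). CD44 RNA differed by -0.17 (SE 0.12, limma adjusted p = 0.56). Recovered reads per library came to between 24421025 and 26988295 in CD24low and between 16691162 and 27293177 in CD24high. The share of reads on rRNA genes was 7.15%, 7.07% and 1.97% in CD24low replicates 1, 2 and 3, and 1.30%, 2.27% and 10.2% in the CD24high replicates. Differences are therefore also given among low-rRNA libraries (CD24low replicate 3 against CD24high replicates 1 and 2) and among high-rRNA libraries (CD24low replicates 1 and 2 against CD24high replicate 3), each with 1 library on a side and so no test. Summed epithelial markers (7 of 7 tested) ranged from 65041 to 99596 normalized counts in CD24low and from 92993 to 114432 in CD24high libraries. Of the 7, 3 were lower in CD24low without overlap (42.9%, against 9.32% of all tested genes). Summed fibroblast markers (2 of 8 tested, LUM at 0) ranged from 887 to 3839 in CD24low and from 52.6 to 359 in CD24high libraries. Most of the highest sum, that of CD24low replicate 2, came from DCN alone. Adipocyte markers (2 of 7 tested, ADIPOQ and LEP at 0) summed to between 1163 and 1668 in CD24low and between 1529 and 1737 in CD24high libraries. Endothelial markers (1 of 4 tested) summed to at most 342 in CD24low and 396 in CD24high libraries.

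**Figure D1:**
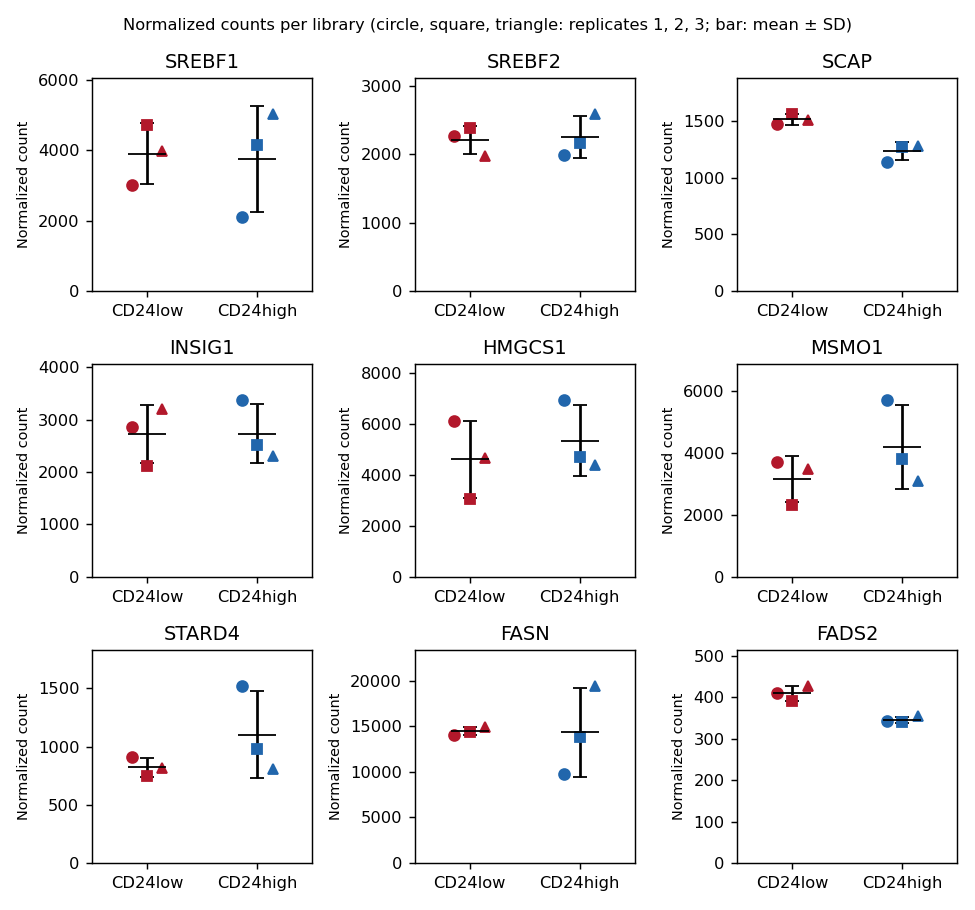
Normalized counts (y axis, linear from 0) of 9 synthesis genes in the CD24low and CD24high libraries, with points for replicates 1, 2 and 3 and bars for mean ± SD (n = 3). SCAP and FADS2 separate the fractions, while SREBF1, HMGCS1, MSMO1, STARD4 and FASN spread more within CD24high than the means differ, as did 77.2% of all tested genes by their log2 range.

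Among the regulators, the transcripts of both SREBPs and of INSIG1 had overlapping levels, and SCAP was the gene with the smallest p of the 31. SREBF1 (ENSG00000072310.16, chromosome 17, 17810399 to 17837002, minus strand, hg38) had 3004, 4719.5 and 3989.5 normalized counts in CD24low replicates 1, 2 and 3, against 2099, 4146 and 5035 in CD24high replicates 1, 2 and 3. CD24high replicate 1 was the lowest library and CD24high replicate 3 the highest, a 2.40-fold span inside 1 fraction, and the difference was 0.12 (SE 0.29, limma adjusted p = 0.89). Among low-rRNA libraries it was 0.44 and among high-rRNA libraries -0.42. SREBF1 exons overlap those of RAI1 on the other strand over 6.92% of their length. SREBF2 (ENSG00000198911.11, chromosome 22, 41833079 to 41907308, plus strand) had 2269.6, 2389 and 1982 normalized counts in CD24low, against 1987, 2173 and 2595 in CD24high libraries. The SREBF2 libraries overlapped throughout (-0.020, SE 0.13, limma adjusted p = 0.96, 95% interval -0.31 to 0.27).

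SCAP, the sterol-sensing escort of the SREBPs (ENSG00000114650.18, chromosome 3, 47413694 to 47477126, minus strand), had 1475, 1566 and 1510.4 normalized counts in CD24low, against 1141, 1276 and 1281 in CD24high libraries. Every CD24low library lay above every CD24high library. The means were 1517 ± 45.8 in CD24low and 1233 ± 79.7 in CD24high cells (SD, n = 3 each), a 1.23-fold difference (log2 0.30, SE 0.10) that did not pass (limma adjusted p = 0.26, DESeq2 adjusted p = 0.22). The difference was 0.32 among low-rRNA and 0.25 among high-rRNA libraries, and 0.25 to 0.33 with any 1 library left out. INSIG1, the brake that retains SCAP and itself an SREBP target (chromosome 7, 155297776 to 155310235), had 2864, 2108 and 3200.1 normalized counts in CD24low, against 3377, 2521 and 2304 in CD24high libraries. Its lowest library was CD24low replicate 2 and its highest CD24high replicate 1, and the means were almost equal (2724 ± 559 and 2734 ± 567; -0.0073, SE 0.18).

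Of the 7 enzymes up to farnesyl diphosphate, none passed and none separated the fractions, with a median difference of -0.025. HMGCS1, which condenses acetoacetyl-CoA and acetyl-CoA to the precursor of mevalonate (ENSG00000112972.14, chromosome 5, 43289395 to 43313512, minus strand), had 6104, 3066 and 4660.5 normalized counts in CD24low, against 6952, 4709 and 4391 in CD24high libraries. IDI1, which isomerises isopentenyl diphosphate (chromosome 10, 1039152 to 1049170), had 2701, 1646 and 2449.7 normalized counts in CD24low, against 3848, 2559.7 and 2184 in CD24high libraries. In both genes CD24low replicate 2 was the lowest library and CD24high replicate 1 the highest, and the differences of -0.24 (SE 0.25) and -0.33 (SE 0.23) had limma adjusted p-values of 0.71 and 0.57. Without CD24low replicate 2 they were 0.026 for HMGCS1 and -0.11 for IDI1, and without CD24high replicate 1 they were -0.036 and -0.093. The differences of the other 5 lay between -0.10 and 0.076. They belong to ACAT2, the cytosolic thiolase that makes acetoacetyl-CoA, MVK and PMVK, the kinases of mevalonate, MVD, which decarboxylates its diphosphate, and FDPS, which makes farnesyl diphosphate. FDPS had 3908, 3631 and 4467 normalized counts in CD24low, against 4002, 4007 and 4161 in CD24high libraries, a spread far narrower than that of HMGCS1 or IDI1. Exons of ACAT2 overlap those of TCP1 and SOD2 on the other strand over 9.23% and 26.5% of their length. The strand setting of the read counter is not given in the sources used here, so the ACAT2 count is uncertain by what such neighbours could share. The same holds for MVK, which overlaps MMAB over 4.72% of its exon length.

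**Figure D2:**
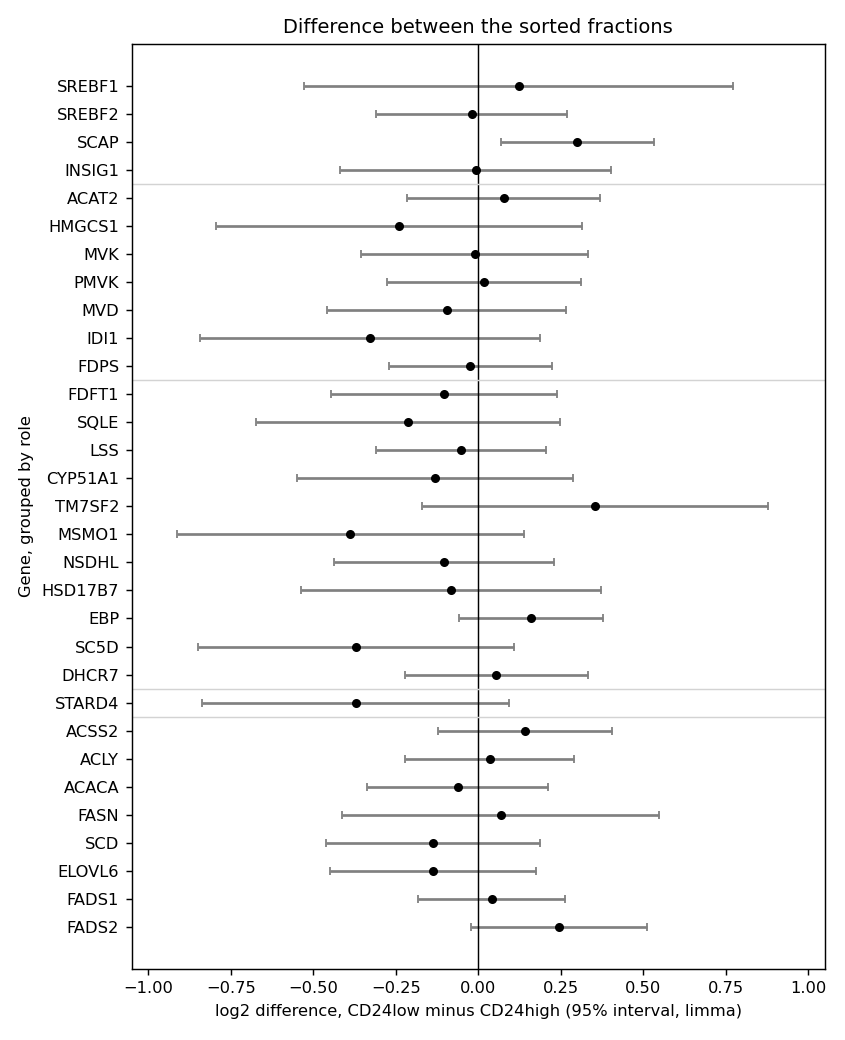
Log2 difference, CD24low minus CD24high (x axis), for each of the 31 genes (y axis, grouped by role from regulators at the top to fatty acid genes at the bottom), with limma's 95% interval from 3 libraries per fraction. Intervals are widest for SREBF1, HMGCS1, TM7SF2 and MSMO1, and only that of SCAP lies above 0 before adjustment.

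The 11 enzymes from squalene to cholesterol had a median difference of -0.10, with 3 positive and 8 negative values, and none passed. The lowest was that of MSMO1, the methylsterol oxidase that works after lanosterol demethylation (ENSG00000052802.12, chromosome 4, 165327623 to 165343160, plus strand). MSMO1 had 3703, 2329 and 3469 normalized counts in CD24low, against 5712, 3806 and 3080.1 in CD24high libraries. The fractions overlapped, since CD24high replicate 3 lay below 2 of the CD24low libraries, and the difference of -0.39 (SE 0.23, limma adjusted p = 0.51, DESeq2 adjusted p = 0.43) was -0.43 among low-rRNA and -0.069 among high-rRNA libraries. It was -0.18 without CD24low replicate 2 and -0.14 without CD24high replicate 1. SC5D, a sterol desaturase of the last steps, had 888, 551 and 841 normalized counts in CD24low, against 1263, 809 and 872 in CD24high libraries. Its difference was -0.37 (SE 0.21, limma adjusted p = 0.48), and it was -0.26 among low-rRNA and -0.32 among high-rRNA libraries. It was -0.15 without CD24low replicate 2 and -0.17 without CD24high replicate 1.

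The 3 early enzymes of this branch overlapped between the fractions. FDFT1, which makes squalene (chromosome 8, 11795573 to 11839309), had 6932, 4844 and 6836 normalized counts in CD24low, against 7260.0, 6375 and 6160.3 in CD24high libraries. SQLE, the squalene epoxidase (chromosome 8, 124998497 to 125022283), had 4449, 2705 and 4034 in CD24low, against 5401, 3956 and 3542 in CD24high libraries. LSS, which closes the sterol rings, had 3649.9, 2958 and 3619 in CD24low, against 3568, 3396 and 3596 in CD24high libraries. In each of these 3 genes CD24low replicate 2 was the lowest of the 6 libraries. Their differences were -0.10 (SE 0.15), -0.21 (SE 0.21) and -0.052 (SE 0.11), with limma adjusted p-values of 0.80, 0.69 and 0.88. CYP51A1, the lanosterol demethylase, NSDHL and HSD17B7, which act with MSMO1 in removing methyl groups, and DHCR7, the reductase of the last step, differed by -0.13, -0.10, -0.083 and 0.055. Each of these 4 also had its lowest value in CD24low replicate 2. HSD17B7 has a pseudogene copy, HSD17B7P2, whose mean count was 16.7% of its own, so reads may have been shared between them.

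TM7SF2 and EBP went the other way in their means. TM7SF2, a sterol reductase, had 123, 199 and 107 normalized counts in CD24low, against 115, 104 and 105 in CD24high libraries. CD24low replicate 2 alone stood high, and without it the TM7SF2 difference of 0.35 (SE 0.23, limma adjusted p = 0.55) was 0.091. TM7SF2 shares 16 exonic bases with VPS51 on its own strand. EBP, the sterol isomerase (chromosome X, 48521158 to 48528716), had 2110.1, 1989.6 and 2162 normalized counts in CD24low, against 1866, 1920.5 and 1816 in CD24high libraries. Its libraries did not overlap, but the difference was 1.12-fold (log2 0.16, SE 0.10, limma adjusted p = 0.51). STARD4, which carries cholesterol between membranes (ENSG00000164211.12, chromosome 5, 111496033 to 111512590, minus strand), had 911, 749 and 813 normalized counts in CD24low, against 1523, 979 and 807 in CD24high libraries. The CD24low values were close together and the CD24high values were not, with CD24high replicate 1 far above the others. The STARD4 difference of -0.37 (SE 0.21, limma adjusted p = 0.47) was -0.59 among low-rRNA and 0.035 among high-rRNA libraries, and -0.11 without CD24high replicate 1.

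The 8 fatty acid genes had a median difference of 0.038, with 5 positive and 3 negative values, and none passed. FASN, the synthase that builds palmitate (ENSG00000169710.8, chromosome 17, 82078333 to 82098332, minus strand), had 14032, 14405 and 14903 normalized counts in CD24low, against 9714, 13867 and 19438 in CD24high libraries. The CD24low libraries lay within 437 (SD) of 14447, whereas the CD24high libraries spread by 4879 (SD) around 14339.6, and the difference was 0.067 (SE 0.21, limma adjusted p = 0.92). As with SREBF1, CD24high replicate 1 was the lowest and CD24high replicate 3 the highest library. The FASN difference was 0.36 among low-rRNA and -0.45 among high-rRNA libraries. FADS2, which starts the synthesis of long polyunsaturated fatty acids (chromosome 11, 61792980 to 61867354), had 409.9, 393 and 428 normalized counts in CD24low, against 342, 342 and 355 in CD24high libraries. All CD24low libraries lay above all CD24high libraries, by 1.18-fold (log2 0.24, SE 0.12, limma adjusted p = 0.40, DESeq2 adjusted p = 0.51), and the difference was 0.32 among low-rRNA and 0.18 among high-rRNA libraries. FADS1, the next desaturase and its neighbour, had the narrowest spread of the 31 genes, 1.10-fold from its highest to its lowest library, and differed by 0.040. FADS1 and FADS2 share 490 exonic bases on opposite strands, and FADS2 shares 49 with FEN1 on its own strand. FADS1 (mean 1386 normalized counts) and FEN1 (2332) were both far above FADS2 (378), so the FADS2 count is uncertain by what these could share.

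SCD, which desaturates stearate, had 15556, 18176 and 20146 normalized counts in CD24low, against 17629, 22184 and 19347 in CD24high libraries. These overlapped (-0.14, SE 0.14, limma adjusted p = 0.72). ELOVL6, which lengthens palmitate, and ACACA, which makes malonyl-CoA, differed by -0.14 and -0.063. ACLY and ACSS2, which make cytosolic acetyl-CoA from citrate and from acetate, differed by 0.035 and 0.14. ACSS2 had 1139.7, 1173 and 1133 normalized counts in CD24low, against 1002, 1194 and 942 in CD24high libraries, so the CD24high libraries enclosed the CD24low ones.

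**Figure D3:**
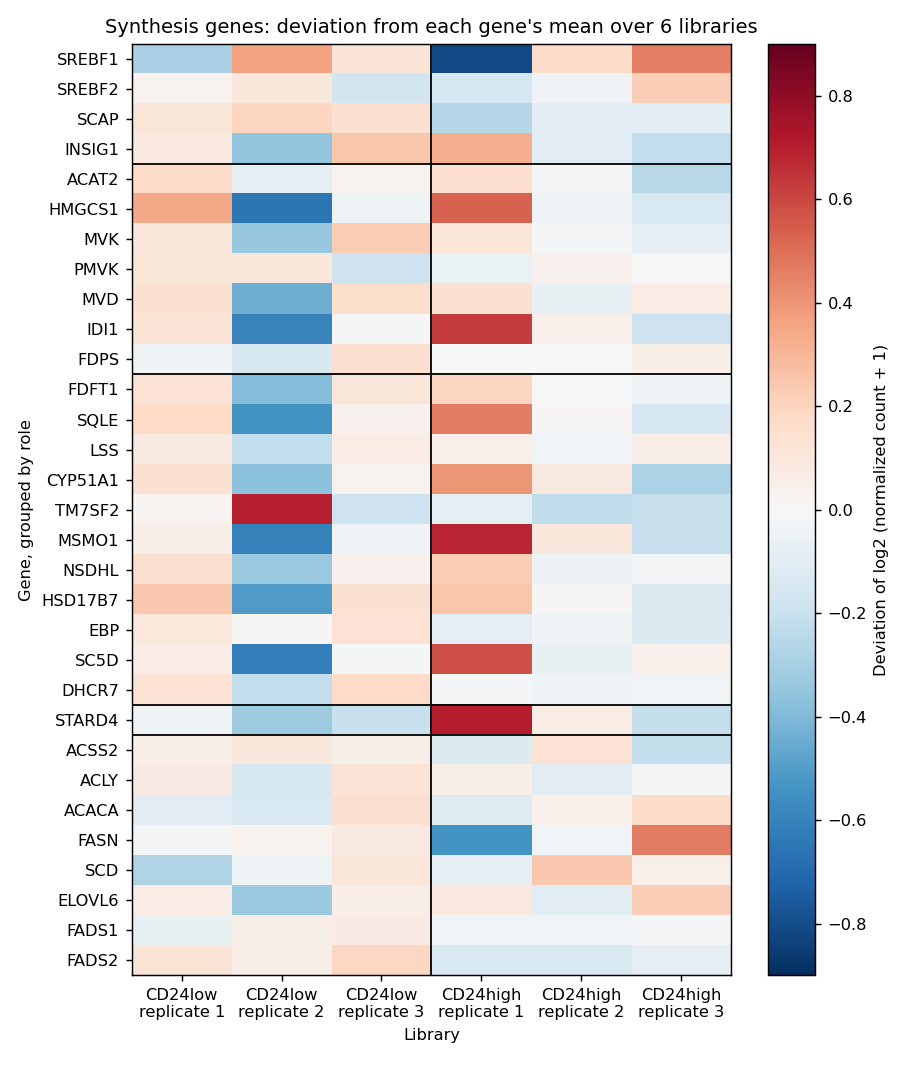
Deviation of each gene's log2 (normalized count + 1) from its mean over the 6 libraries (colour), with genes in rows by role and libraries in columns, CD24low on the left. Blue fills most sterol enzyme rows in CD24low replicate 2, and red fills many of them in CD24high replicate 1, where SREBF1 and FASN are blue.

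The sterol enzymes moved with single libraries more than with the fraction. CD24low replicate 2 was the lowest of the 6 libraries for 5 of 7 enzymes up to farnesyl diphosphate and for 9 of 11 from squalene onwards. The exceptions were ACAT2, PMVK, TM7SF2 and EBP. Over the 31 genes CD24low replicate 2 was lowest for 19 (61.3%), against 26.3% of all tested genes. CD24high replicate 1 was the highest library for 11 of the 31 genes (35.5%, against 26.8% of all tested genes), 7 of which were among the 11 enzymes from squalene onwards. The span from the highest to the lowest library was 2.45-fold for MSMO1, 2.34-fold for IDI1, 2.29-fold for SC5D and 2.27-fold for HMGCS1. These are descriptions of libraries, each of which is 1 sample.

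The summed normalized counts of the 18 sterol enzymes were 50202, 35493 and 47769 in CD24low replicates 1, 2 and 3, against 56462, 45958 and 42829.6 in the CD24high replicates. Those of the 8 fatty acid genes were 46179, 47559 and 52724 in CD24low, against 43652, 51979.7 and 55778 in the CD24high replicates. In CD24high replicate 1 the sterol sum was thus the highest and the fatty acid sum the lowest of the 6 libraries. Only 1 of the 8 fatty acid genes, FASN (9714 normalized counts there), had its own lowest value in that library. In CD24high replicate 3 the fatty acid sum was the highest. CD24low replicate 2 had the lowest sterol sum, and it was also the library with the least CD24 RNA, the lowest epithelial marker sum (65041) and the highest fibroblast marker sum (3839, of which DCN made 3704). The part of these markers in the sterol values was not tested. The 31 genes together took 0.39% to 0.47% of normalized counts in the CD24low libraries and 0.45% to 0.49% in the CD24high libraries.

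**Figure D4:**
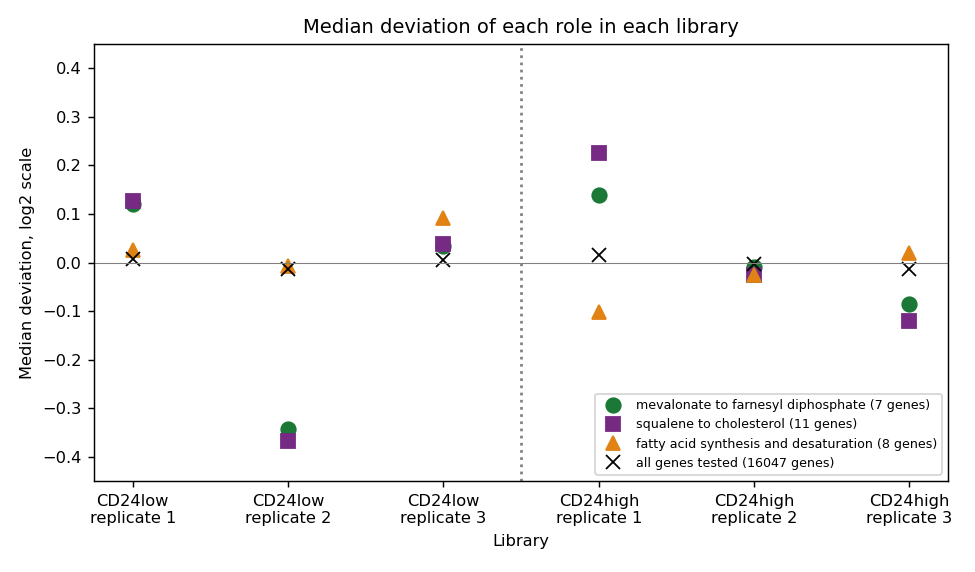
Median deviation from the mean over 6 libraries (y axis, log2 scale) for the enzymes up to farnesyl diphosphate, the enzymes from squalene to cholesterol, the fatty acid genes and all tested genes, in each library (x axis). Both sterol groups lie at -0.34 and -0.37 in CD24low replicate 2, where the fatty acid genes lie at -0.0065, and the medians of all tested genes stay near 0.

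Medians by library differed between the roles. In CD24low replicate 2 the median deviation was -0.34 for the enzymes up to farnesyl diphosphate, -0.37 for those from squalene onwards and -0.0065 for the fatty acid genes. In CD24high replicate 1 the medians were 0.14, 0.23 and -0.10 in the same order. Single fatty acid genes did not all follow their median. CD24low replicate 2 was also the lowest library for 3 of the 8 (37.5%, against 26.3% of all tested genes). Over all tested genes the library medians lay between -0.014 and 0.015. Without CD24low replicate 2 the median difference of the 31 genes turned positive (0.043), with 21 positive and 10 negative values, and without CD24low replicate 3 it was -0.13.

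Levels per exon length spanned a wide range that was shared by the fractions. SCD was the most abundant of the 31, with 3349 normalized counts per kilobase of merged exons in CD24low and 3678 in CD24high cells. By the mean over all 6 libraries FASN (1537) and CYP51A1 (1531) came next and could not be ordered, since FASN stood at 1543 in CD24low and 1531 in CD24high cells and CYP51A1 at 1456 and 1606. ACLY, MSMO1, FDFT1, FDPS and HMGCS1 followed in mean level. Of the 30 pairs of neighbours in this order, the libraries were separate in 3 (SCD above FASN, SREBF2 above SCAP and FADS1 above HSD17B7) and overlapped in all others. FADS2 (37.2 in CD24low and 31.4 in CD24high cells) and TM7SF2 (41.9 and 31.6) were at the bottom, below HSD17B7 (79.3 and 82.4). TM7SF2 had the higher mean of that pair through CD24low replicate 2 (58.3) and lay below FADS2 in most other libraries. The SREBF1 gene was measured at 486 in CD24low and 468 in CD24high cells, against 293 and 298 for SREBF2, but in CD24high replicate 1 the order of these genes was reversed (261 for SREBF1 and 263 for SREBF2). Merged exons can include some that these cells do not use, which was not corrected.

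**Figure D5:**
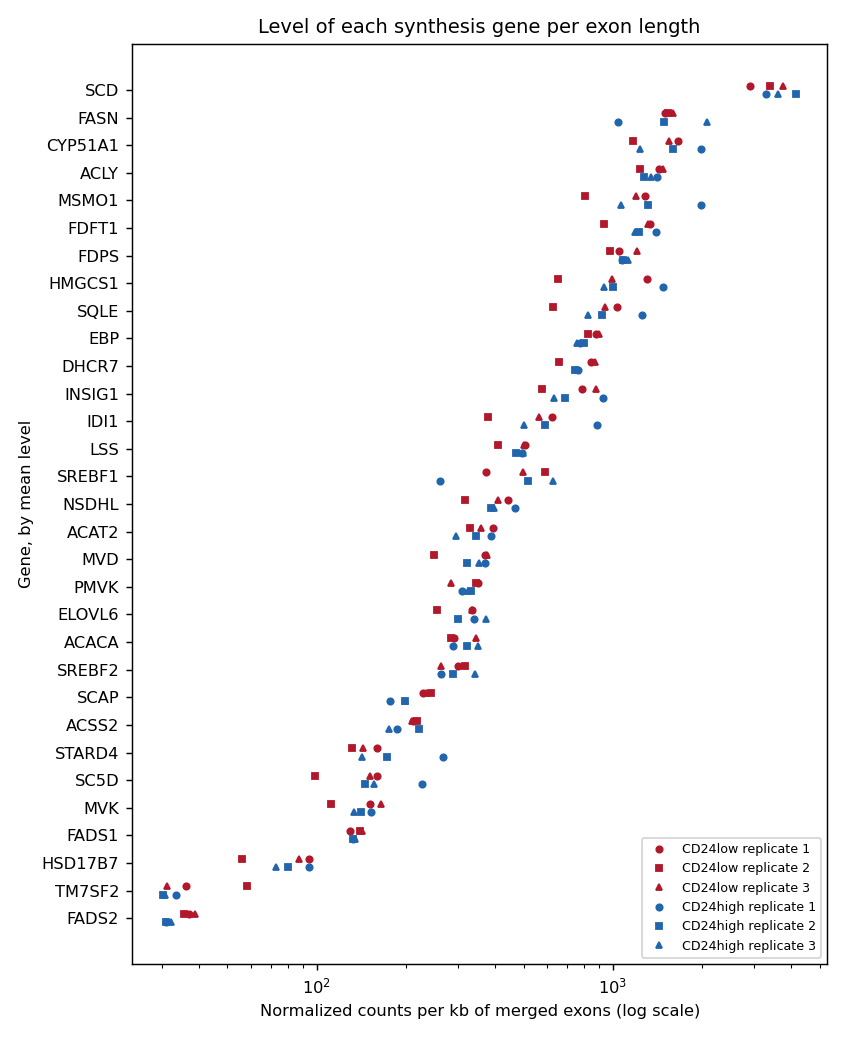
Normalized counts per kilobase of merged exons (x axis, log scale) for each of the 31 genes (y axis, by mean level), with a symbol for each library, CD24low in red and CD24high in blue. SCD lies at the top in every library and FADS2 and TM7SF2 at the bottom, and red and blue overlap for most genes.

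Other genes of SREBP control gave no calls either. Of 13 genes of SREBP processing and turnover, all tested, 0 passed with limma or DESeq2, with a median difference of -0.0024. RNF145, a ubiquitin ligase that acts on SCAP, had the smallest p, with 1654, 1746 and 1977 normalized counts in CD24low, against 2365, 2058 and 2414 in CD24high libraries. All CD24low libraries lay below all CD24high libraries (-0.35, SE 0.12, limma adjusted p = 0.25, DESeq2 adjusted p = 0.16). Of the 13 genes, 2 were lower without overlap (15.4%, against 9.32% of all tested genes) and 1 was higher (7.69%, against 10.2%). MIR33A, a microRNA gene inside SREBF2, was listed without a read in any of the 6 libraries, where 3 reads are worth 2.49 to 4.38 normalized counts, and MIR33B inside SREBF1 had at most 4.94, so neither was tested. Of 17 further sterol and isoprenoid enzymes 15 were tested and 0 passed with limma or DESeq2, with a median of 0.010. POR, which hands electrons to CYP51A1 and SQLE, had the smallest p in that list, with 1273 ± 74.1 normalized counts in CD24low and 1098 ± 92.0 in CD24high cells (0.22, SE 0.11, limma adjusted p = 0.43).

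Of 28 further fatty acid enzymes 25 were tested, with a median difference of 0.0034. With limma 0 passed, and with DESeq2 1 passed, against 2.51% of all tested genes. That gene was ACACB, the mitochondrial acetyl-CoA carboxylase whose malonyl-CoA restrains fatty acid oxidation. ACACB had 22.0, 39.2 and 15.7 normalized counts in CD24low, against 4.15, 3.95 and 2.92 in CD24high libraries. ACACB passed the filter through its CD24low values alone, and its CD24high libraries were near the 2.49 to 4.38 normalized counts that 3 reads are worth, so its separation and its DESeq2 call (adjusted p = 0.0090, limma adjusted p = 0.078) follow in part from how it was let in and are given as a description. Its cytosolic relative ACACA, a gene of the synthesis list, stood at 3995 ± 442 in CD24low and 4169 ± 405 in CD24high cells.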

How the data were processed

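RNA of 6 libraries was analysed, 3 CD24low and 3 CD24high, grouped by their titles. Each deposited value is a signal that is never below 0, a gene count scaled by a size factor of its library. The submitters' processing notes list DESeq2, STAR 2.5.2, R 3.5.0 and hg38. Which counter, strand setting and annotation were applied is not given in the sources used here. Values were whole multiples of 1 step per library, and reads were recovered by dividing by it (100% whole within 0.1 reads; 1 read was worth 0.83 to 1.46 normalized counts). Floors of 3 reads cover counting error only.

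IDs were matched without version to GENCODE 29 for symbols, coordinates and merged exon lengths (58261 of 58381 matched). The main test was limma 3.58.1 (R 4.3.3) (trend option) on log2 of the normalized count plus 1, with group as the only term, over the 16047 genes whose mean reached 10 normalized counts, with Benjamini-Hochberg adjustment. The pseudocount understates changes of low genes. DESeq2 1.42.0 and edgeR 4.0.16 were run on recovered reads, and each script's test was checked on simulated counts. Those counts were drawn independently for each gene, so the check does not show what power the tests had on these libraries. Replicates differed by more than sampling noise in every pair, so each library was counted once. RefSeq promoter windows were searched for motif letters.

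The 31 genes and the lists were chosen with earlier results of these data known. All 31 are named. From each other list the rule took the genes called by limma or DESeq2, or else that with the smallest p, plus CD24, CD44 and genes whose exons overlap those of the 31, of which the protein-coding ones are named. Exceptions are marked in the text. Alternatives were other pseudocounts, filters, scalings and tools, the replicate block, rRNA share as a covariate and leaving out libraries. A further marker list is not reported here.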

Additional observations from a re-analysis of the deposited data

How the results depend on the processing

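No setting made a gene of the 31 pass: with 19 alternatives, 0 of 589 values passed, 548 kept the direction of the reported value and 41 reversed, 28 of those with 1 library left out (13 without CD24low replicate 2 and 7 without CD24high replicate 1). The median moved by less than 0.13 under each alternative, where 0.13 is the SD of the library medians within fractions. Leaving out 1 library can shift the median by only part of such a spread, so this bound is a weak check. The median was lowest at -0.13 (CD24low replicate 3 left out) and highest, within leave-one-out, at 0.043 (CD24low replicate 2 left out). The latter had the opposite sign to the reported median. It was 0.051 among low-rRNA and -0.030 among high-rRNA libraries. Over all genes, 164 were called with no filter, 402 with DESeq2, 103 without both libraries numbered 3, and 0 to 366 with 1 library left out (366 without CD24low replicate 3). The count at an unadjusted p below 0.05 was 1387 to 2539 with 1 library left out, 3227 with no filter and 2811 without both libraries numbered 3. Of the 31 genes, 2 had an unadjusted p below 0.05 with DESeq2 (6.45%, against 13.0% of all tested genes). There were 3 without both libraries numbered 3 (9.68%, against 17.5%). With 1 library left out there were 1 to 3 (3.23% to 9.68%, against 8.64% to 15.8%). Without both libraries numbered 3, 10 of the 31 did not overlap, against 51.1% of all tested genes. With 1 library left out, 4 to 6 did not overlap, against 27.0% to 33.9%. DESeq2 called 1 further fatty acid enzyme and 1 oxidation gene where limma called 0.

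Blocking on the replicate number, the count of calls was 716 in limma and 705 in edgeR, with 4 of the 31 at an unadjusted p below 0.05 in each (SCAP, MSMO1, SC5D and STARD4; 12.9%, against 16.9% and 17.4% of all tested genes) and 0 passing. Deviations of same-numbered libraries correlated by 0.27, 0.30 and 0.051 over all tested genes. Between the fractions, libraries of unlike number correlated by -0.26 to 0.075, the highest being CD24low replicate 3 with CD24high replicate 1. The labels do not tell whether the numbers mark shared cultures or sorts, and these correlations do not settle it. The main test therefore did not take the numbers as pairs.

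Values that reversed, for causes not tested, were MVK with DESeq2 (0.0052), edgeR (0.0067) and the rRNA covariate (0.069), PMVK with total scaling (-0.0031) and the covariate (-0.034), and INSIG1 (0.11), FDPS (0.0069), HSD17B7 (0.0042) and FASN (-0.045) with the covariate. Without both libraries numbered 3 they were SREBF2 (0.16), ACAT2 (-0.027), DHCR7 (-0.019) and ACLY (-0.014). With 1 library left out the ranges that crossed 0 were those of ACACA (-0.15 to 0.0045), ACAT2 (-0.029 to 0.17), ACLY (-0.016 to 0.12), CYP51A1 (-0.31 to 0.035), DHCR7 (-0.020 to 0.18), FASN (-0.18 to 0.32), FDFT1 (-0.19 to 0.065), FDPS (-0.11 to 0.043), HMGCS1 (-0.47 to 0.026), HSD17B7 (-0.23 to 0.15), INSIG1 (-0.13 to 0.17), LSS (-0.10 to 0.047), MVD (-0.20 to 0.099), MVK (-0.13 to 0.16), NSDHL (-0.20 to 0.037), PMVK (-0.035 to 0.11), SQLE (-0.36 to 0.0021), SREBF1 (-0.25 to 0.38) and SREBF2 (-0.11 to 0.086). All 31 genes passed the filter on low counts.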

Other observations

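Of 19 fatty acid oxidation genes, the counterpart of synthesis, 18 were tested and 0 passed with limma. In limma 3 of the 18 had an unadjusted p below 0.05, against 13.5% of all tested genes. With DESeq2 1 passed, against 2.51% of all tested genes. The median difference was 0.090, with 13 positive and 5 negative values (72.2% positive, against 49.0% of all tested genes). It was 0.0019 among low-rRNA and 0.20 among high-rRNA libraries. The DESeq2 call was PPARGC1A, a coactivator of mitochondrial genes, with 7.05, 59.2 and 14.7 normalized counts in CD24low, against 0.83, 3.95 and 2.92 in CD24high libraries (adjusted p = 0.018 in DESeq2 and 0.19 in limma). PPARGC1A passed the filter through its CD24low values alone, mainly replicate 2, so its call and its place in the counts of this list are descriptions. CPT1A, the gatekeeper of mitochondrial import, CPT2, ACADS and ECI1 were also higher in CD24low without overlap, and were named after their values were seen. With PPARGC1A they made 5 of the 18 (27.8%, against 10.2% of all tested genes). In the other direction 0 of the 18 were without overlap, against 9.32%. CPT1A had 3010.0, 2551 and 2369 in CD24low, against 2308, 2178 and 2171 in CD24high libraries (0.25, limma adjusted p = 0.39).

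Among the 25 further fatty acid enzymes tested, 5 were lower in CD24low without overlap (20.0%, against 9.32% of all tested genes) and 2 higher (8.0%, against 10.2%), with 13 positive and 12 negative values. The 2 higher and the 13 positive include ACACB, which passed the filter through its CD24low values alone. Elongases are given here as a family chosen after values were seen. ELOVL2 and ELOVL3 were not tested. ELOVL1 (0.015, limma adjusted p = 0.97) and ELOVL6, a gene of the synthesis list (-0.14, limma adjusted p = 0.70), overlapped. ELOVL4, ELOVL5 and ELOVL7 were among the 5 lower. ELOVL4 had 174, 151 and 149.9 normalized counts in CD24low, against 299, 205.5 and 222 in CD24high libraries (-0.60, limma adjusted p = 0.21, DESeq2 adjusted p = 0.092). ELOVL5, the most abundant of these 3 by count, had 2341, 2146 and 2264 in CD24low, against 2829, 2427 and 2357 in CD24high libraries (-0.17, limma adjusted p = 0.54). ELOVL7 had 175, 123 and 251 in CD24low, against 358, 253 and 254 in CD24high libraries (-0.69, limma adjusted p = 0.29, DESeq2 adjusted p = 0.18). The ELOVL7 difference was -0.44 without CD24low replicate 2 and -0.95 without CD24low replicate 3. Among 25 genes of sterol storage, trafficking and output through LXR, a sterol-sensing nuclear receptor, 16 were tested, 0 passed with limma or DESeq2, and the median was 0.071. LRP1, an endocytic lipoprotein receptor, had 285, 1151 and 170.4 normalized counts in CD24low, against 53.1, 112 and 84.7 in CD24high libraries (2.25, SE 0.58, limma adjusted p = 0.17, DESeq2 adjusted p = 0.058). The LRP1 difference was 1.46 without CD24low replicate 2 (limma adjusted p = 0.24) and 2.83 without CD24low replicate 3 (limma adjusted p = 0.026). CD24low replicate 2 also had the highest fibroblast marker sum (3839, mostly DCN) and the lowest epithelial sum (65041), whose part in this difference was not tested. The sterol exporter ABCA1, an LXR target, named after its values were seen, did not exceed 6.64 normalized counts in any library and was not tested.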
